A study of Homo sapiens with 6 samples.

Results

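Immune checkpoint ligands are proteins on or near the tumor cell surface that T cells, NK cells or macrophages read through inhibitory receptors, and 9 genes coding for such ligands or for the opposing phagocytic signal were examined here in the ovarian cancer cell line UWB1.289. The genes were CD47, CD274, PDCD1LG2, CD276, NECTIN2, PVR, LGALS9, VTCN1 and CALR, out of 63677 genes with counts. They were selected by the known role of their proteins, with the Olaparib-DMSO differences of the same 6 samples already known, the rise of CD47 among them. Their fold changes, intervals and calls are therefore given as a description, without p values, and support nothing by themselves. All 9 symbols matched an identifier in the counts, and 9 of 9 had more than 10 counts in total and entered the fit of 21729 genes.

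UWB1.289 is a BRCA1-deficient line, and the sample labels give its genotype as WT, so no introduced change was named. One group had 24 h in 4 µM Olaparib, an inhibitor of poly(ADP-ribose) polymerases, and the other had 24 h in the vehicle dimethylsulfoxide (DMSO). Each group had 3 samples. The paper's methods describe 3 dishes per condition and call the 3 replicates independent. Neither the methods nor the sample titles say whether these were handled on separate days. The series' design text gives 10 µM in place of 4 µM. All 6 samples came from a single line in culture without immune cells, and no sample with restored BRCA1 was analysed here. RNA was measured as poly(A)-selected libraries of 35360458 to 39640775 counted reads. PARP1, the main target of the drug, had a log2 fold change of 0.0045, so its transcript does not check the treatment.

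Of 12 ovarian carcinoma and epithelial markers, 11 passed the filter, with a median log2 fold change of 0.071, and they summed to 480284 to 504829 normalized counts after Olaparib and 473786 to 489857 after DMSO. The keratins KRT7, KRT8 and KRT18 made up most of these sums. KRT7, EPCAM and PAX8, a transcription factor of Müllerian epithelium, stood at 992, 309 and 41.4 RPKM (reads scaled to exon length and library size) in DMSO. MUC16 and FOLR1, also on the list, were much lower, at 1.0 and 1.35 RPKM. WT1, which often marks serous ovarian carcinoma, had 8 counts over all 6 samples. PAX8 and CLDN4 were higher after Olaparib, with log2 fold changes of 0.10 and 0.14 and Benjamini-Hochberg adjusted p values of 0.0399 and 0.0271 over all genes by the quasi-likelihood method of edgeR, the source of every p value below. An antisense gene shares 22.4% of the exonic bases of PAX8. Either call was lost when single samples were left out, in 5 of 6 cases for PAX8 and in 4 of 6 for CLDN4. Of 15 immune cell markers, 9 passed the filter, 6 had 10 counts or fewer, and CD3D and NKG7 had 0 counts, which allows at most 3 counts of the total. The 9 markers that passed summed to 189 to 206 normalized counts after Olaparib and 154 to 181 after DMSO. PTPRC, CD14 and NCAM1 made up most of this sum, and the median log2 fold change of the 9 was 0.15. CD14 had 44.5, 56.4 and 48.7 against 39.7, 41.2 and 31.3 normalized counts and was not called. The part of either marker list in the results below was not tested. These limits cover counting error only.

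CD47 is the "don't eat me" signal: it binds SIRPA on macrophages and holds back phagocytosis, while cell-surface calreticulin, the product of CALR, promotes engulfment through LRP1. CD274 (PD-L1) and PDCD1LG2 (PD-L2) bind PD-1 on T cells. CD276 (B7-H3) and VTCN1 (B7-H4) belong to the same B7 family, and their receptors on T cells are less settled. NECTIN2 (CD112) and PVR (CD155) are adhesion proteins read by the inhibitory receptor TIGIT and the activating receptor CD226, and NECTIN2 also by PVRIG. LGALS9 codes for galectin-9, a sugar-binding protein that can engage HAVCR2 (TIM-3). In many tumor cells, interferon signaling raises CD274, and PARP inhibitors are studied together with antibodies against this axis.

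The ligands spanned a wide range of levels in the DMSO-treated cells. In the 3 DMSO samples, CALR had 400 ± 3.72 RPKM (SD, n = 3), above 99.7% of the genes tested. CD47 followed with 22.8 ± 1.23, NECTIN2 with 21.1 ± 0.613, CD276 with 11.1 ± 0.402 and PVR with 10.0 ± 0.27 RPKM, at percentiles 90.4, 89.7, 81.2 and 79.7. CD274 lay in the middle of all genes, with 1.73 ± 0.136 RPKM at percentile 52.1. VTCN1, PDCD1LG2 and LGALS9 were low, with 0.269 ± 0.0504, 0.235 ± 0.0317 and 0.0678 ± 0.00503 RPKM. Counting alone gives these 3 genes coefficients of variation of 18.0%, 21.5% and 26.1% in DMSO, against 18.7%, 13.5% and 7.42% seen. The SDs of PDCD1LG2 and LGALS9 thus understate their uncertainty. PD-1's ligands thus stood below the NECTIN2-PVR pair and below CD47 on this per-length scale. Of the 8 neighbouring pairs in this order, 6 had DMSO samples that did not overlap. The exceptions were CD47 over NECTIN2, where the lowest CD47 sample had 21.6 RPKM and the highest NECTIN2 sample 21.7, and VTCN1 over PDCD1LG2, where the corresponding values were 0.231 and 0.269. After Olaparib, CD47 and NECTIN2 no longer overlapped, with CD47 at 28.7 to 31.1 and NECTIN2 at 20.8 to 21.6 RPKM.

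**Figure D1:**
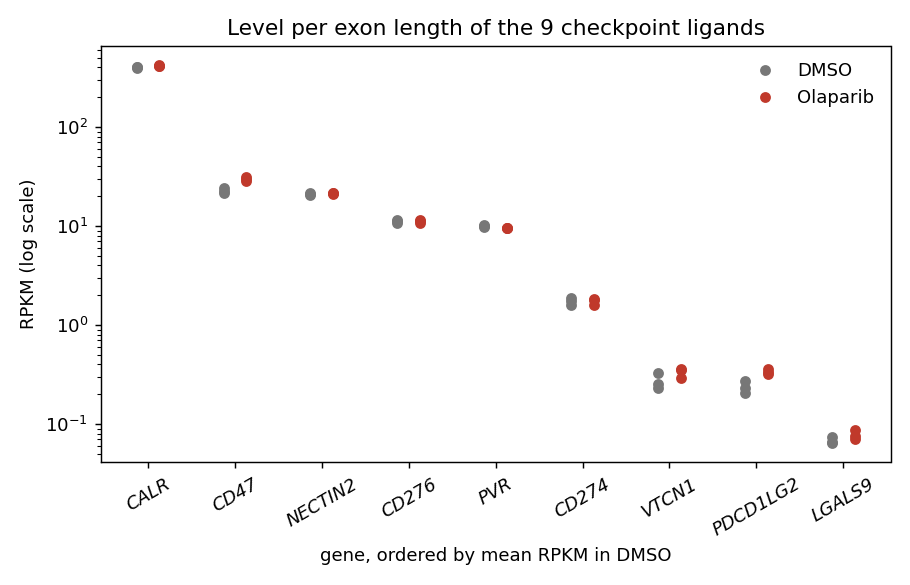
RPKM of the 9 ligands on a log axis, genes ordered by their mean in DMSO, with 1 point per sample in grey for DMSO and red for Olaparib (3 each). CALR sits at about 400 RPKM, CD47 to PVR between 9.53 and 31.1, CD274 near 1.73, and the last 3 genes below 0.4.

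CD47 (ENSG00000196776, chromosome 3, 108043091 to 108091862 on GRCh38, minus strand) was the 1 ligand of 9 called in the comparison, and it was higher after Olaparib. The Olaparib samples held 9584, 8830 and 9267 normalized counts and the DMSO samples 7414, 6655 and 6989. Every Olaparib sample lay above every DMSO sample, and the gap between the groups was larger than the spread within either. The mean rose from 7020 ± 380 to 9227 ± 378 (SD, n = 3 each). The log2 fold change was 0.39 (standard error 0.035, 95% interval 0.32 to 0.47), which is 1.31-fold. Calls required a Benjamini-Hochberg adjusted p under 0.05 by edgeR, which 2.15% of the genes tested met as higher and 1.21% as lower. CD47 also passed the additional limit of a 1.2-fold change, as 1.21% of all genes did in either direction. Among the 467 genes called higher, 70 had a larger fold change than CD47. In bulk RNA, more transcript per cell and a larger share of cells with the transcript cannot be told apart. Read counting accounts for a coefficient of variation of 1.19% at the depth of CD47, against 5.42% seen between its DMSO samples, so the number of reads was not what limited this value.

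**Figure D2:**
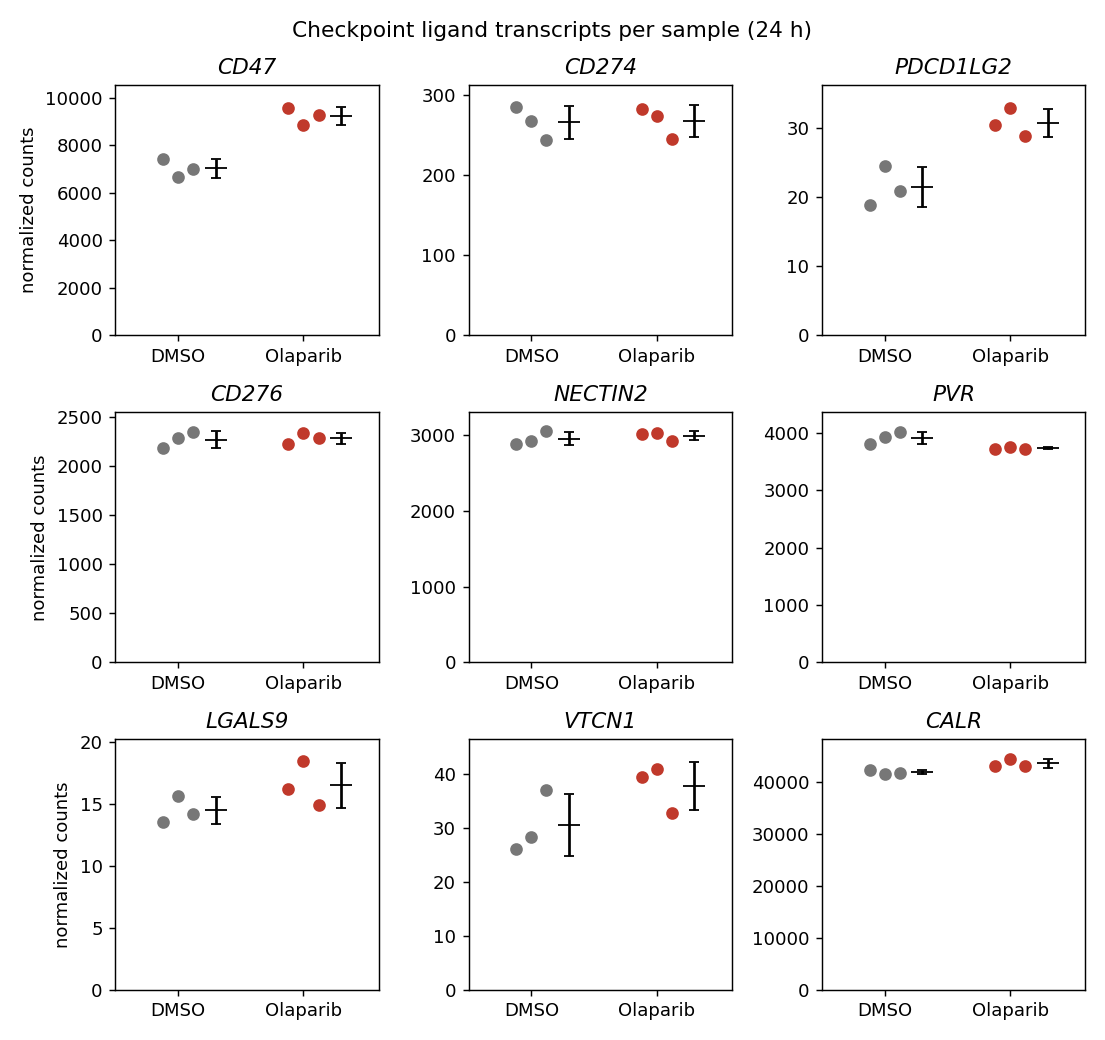
Normalized counts of each ligand in every sample, with separate vertical axes that start at 0, grey points for DMSO, red points for Olaparib, and a bar for the mean ± SD of 3 samples. CD47 shows groups far apart (6655 to 7414 against 8830 to 9584), while for CD274 the groups cover nearly the same range.

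The 250 bases before the start site of CD47 are shown because it was the called member, beside those of CD274 and CALR, whose windows hold other motifs. The sequences are from RefSeq on GRCh38.p14, read 5′ to 3′ on the gene's own strand. They lie at chr3:108091032-108091281 (minus), chr9:5450292-5450541 (plus) and chr19:12938359-12938608 (plus), and for all 3 genes the GENCODE annotation begins upstream of these starts, inside the window for CALR and CD274 and beyond it for CD47. Capitals mark every match on either strand to the motifs named after the sequences.
CD47: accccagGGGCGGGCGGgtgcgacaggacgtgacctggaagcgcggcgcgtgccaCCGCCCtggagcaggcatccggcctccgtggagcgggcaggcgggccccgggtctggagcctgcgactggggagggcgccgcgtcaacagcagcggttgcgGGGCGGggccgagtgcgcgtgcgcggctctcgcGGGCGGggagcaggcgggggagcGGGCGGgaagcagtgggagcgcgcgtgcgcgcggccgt
CD274: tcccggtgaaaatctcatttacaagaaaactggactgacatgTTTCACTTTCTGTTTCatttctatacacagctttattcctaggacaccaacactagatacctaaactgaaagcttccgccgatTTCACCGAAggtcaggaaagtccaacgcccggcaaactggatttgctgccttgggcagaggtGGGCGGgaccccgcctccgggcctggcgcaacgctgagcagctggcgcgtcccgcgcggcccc
CALR: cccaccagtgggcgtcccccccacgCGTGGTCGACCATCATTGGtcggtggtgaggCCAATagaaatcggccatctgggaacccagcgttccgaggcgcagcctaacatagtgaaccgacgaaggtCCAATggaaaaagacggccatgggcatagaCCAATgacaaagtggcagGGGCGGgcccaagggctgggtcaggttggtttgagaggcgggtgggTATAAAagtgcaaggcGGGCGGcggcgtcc

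The motifs searched were the interferon-stimulated response element core (GAAA, any 2 bases, GAAA), the interferon-gamma activated site GAS as TTCNNNGAA, the Sp1 GC box GGGCGG, the CCAAT box, the TATA box TATAAA, and the endoplasmic reticulum stress element ERSE (CCAAT, any 9 bases, CCACG), which contains a CCAAT box. The CD47 window held 6 GC boxes, the first 2 overlapping, and no match to the other 5 motifs. GC boxes were found in 42.6% of the 35116 promoter windows of the same length. The CD274 window held 2 overlapping matches to the response element core, at positions -208 and -202 counted from the start, 1 GAS match and 1 GC box. Of the 8 ligands with a RefSeq window, CD274 was the 1 with the response element core and the 1 with GAS, which 3.02% and 6.57% of all windows hold. The CALR window held 1 ERSE, present in 0.074% of windows, 4 CCAAT boxes of which 1 lies within the ERSE, 1 TATA box and 2 GC boxes. G and C made up 79.6%, 54.8% and 61.6% of the CD47, CD274 and CALR windows, with a median of 58.0% over all windows. A match to these letters is a description of the sequence and does not show that a factor binds there.

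CD274 (ENSG00000120217, chromosome 9, 5450503 to 5470566) was not called. It had 283, 274 and 245 normalized counts with Olaparib, compared to 285, 268 and 244 with DMSO. The groups overlapped almost completely, and each of the 3 values in one group had a close counterpart in the other. The log2 fold change was 0.011 (standard error 0.081, 95% interval -0.15 to 0.17), so the fit holds fold changes from 0.899 to 1.13. At 246 to 280 raw counts per sample, counting alone gives a coefficient of variation of 6.11%, close to the 7.90% seen in DMSO. The sign is not settled, since the log2 fold change went to -0.032 without Olaparib replicate 1, -0.0067 without Olaparib replicate 2 and -0.051 without DMSO replicate 3.

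PDCD1LG2 (ENSG00000197646, chromosome 9, 5510531 to 5571282) begins 39964 bases after the end of CD274 on the same strand. It had 30.4, 32.8 and 28.8 normalized counts in the Olaparib samples, against 18.8, 24.5 and 20.9 in the DMSO samples. The groups did not overlap, but with 18 to 32 raw counts per sample the estimate was wide. The log2 fold change was 0.51 (standard error 0.23, 95% interval 0.046 to 0.98, not adjusted for the number of genes), and the gene was not called. Groups that lay apart with Olaparib higher were seen for 10.0% of all genes tested and with Olaparib lower for 9.29%. The RPKM of CD274 exceeded that of PDCD1LG2 5.16 ± 0.317 fold within the Olaparib samples and 7.45 ± 1.34 fold within the DMSO samples, with single-sample ratios of 5.53, 4.94 and 5.02 against 8.98, 6.46 and 6.92. At the low counts of PDCD1LG2, these SDs may understate the uncertainty of the ratios.

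The 3 tested protein-coding genes on each side of this pair on chromosome 9 gave no call. Of all genes tested, 2.15% were called higher and 1.21% lower. PLGRKT, a plasminogen receptor whose gene ends 12.6 kb before CD274, had a log2 fold change of -0.044 (SE 0.063, edgeR adjusted p = 0.813). The relaxin genes RLN1 and RLN2, farther to that side, had 0.26 and -0.35, at edgeR adjusted p = 0.87 and 0.289. On the side of PDCD1LG2, RIC1, ERMP1 and KIAA2026 had log2 fold changes of 0.10, 0.026 and -0.0076, at edgeR adjusted p = 0.385, 0.834 and 0.974.

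CD276 (ENSG00000103855, chromosome 15, 73683966 to 73714514) was not called. It had 2225, 2339 and 2291 normalized counts with Olaparib, compared to 2181, 2288 and 2343 with DMSO. The groups overlapped, and the log2 fold change of 0.0085 (standard error 0.041, 95% interval -0.074 to 0.091) went to -0.0078 without Olaparib replicate 2 and -0.017 without DMSO replicate 1. VTCN1 (ENSG00000134258, chromosome 1, 117143587 to 117210960, minus strand), its B7 relative, had 39.5, 41.0 and 32.8 normalized counts in the Olaparib samples, against 26.1, 28.4 and 37.0 in the DMSO samples. Its groups overlapped through DMSO replicate 3 and Olaparib replicate 3, and the log2 fold change was 0.30 (standard error 0.21, 95% interval -0.12 to 0.72). It was not called, and a change of up to 1.64-fold lies within that interval. Of the 4 B7 family ligands, 0 were called, where 2.15% of all genes tested were called higher and 1.21% lower. PDCD1LG2 and VTCN1 had low counts and wide intervals.

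NECTIN2 and PVR lie near each other on chromosome 19, at 44846175 to 44889223 (ENSG00000130202) and 44643798 to 44666162 (ENSG00000073008). NECTIN2 had 3011, 3027 and 2917 normalized counts with Olaparib, compared to 2883, 2918 and 3046 with DMSO. These groups overlapped, and the log2 fold change was 0.017 (standard error 0.038, 95% interval -0.061 to 0.095). PVR had 3720, 3754 and 3720 normalized counts in the Olaparib samples, against 3805, 3935 and 4014 in the DMSO samples. The PVR groups lay apart with Olaparib lower, by a log2 fold change of -0.071 (standard error 0.035, 95% interval -0.14 to 0.00097), and PVR was not called. Exons of other genes, CEACAM19 among them, cover 20.6% of the exonic bases of PVR, so part of its count is uncertain. For NECTIN2 this share was 3.42%.

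LGALS9 (ENSG00000168961, chromosome 17, 27629798 to 27649560) was the lowest ligand, with 16.2, 18.5 and 14.9 normalized counts with Olaparib, compared to 13.6, 15.7 and 14.2 with DMSO. The groups overlapped, and the log2 fold change of 0.18 had a standard error of 0.30 and a 95% interval from -0.42 to 0.78, so fold changes from 0.749 to 1.72 could not be separated at this depth. Its near-identical copies LGALS9B and LGALS9C had 3 and 1 counts in total, and reads could be split between the copies. With the 3 genes summed, the log2 fold change was 0.12.

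CALR (ENSG00000179218, chromosome 19, 12938578 to 12944489) codes for a calcium-binding chaperone of the endoplasmic reticulum and was the most abundant ligand by far. It had 43018, 44508 and 43163 normalized counts in the Olaparib samples, against 42358, 41603 and 41811 in the DMSO samples. The groups lay apart, but the log2 fold change was 0.055 (standard error 0.026, 95% interval 0.0022 to 0.11), and CALR was not called. An antisense gene covers 9.64% of its exonic bases. The ratio of CD47 to CALR within a sample, which does not depend on scaling between libraries, was 0.223, 0.198 and 0.215 in the Olaparib samples and 0.175, 0.16 and 0.167 in the DMSO samples. All 3 ratios after Olaparib exceeded all 3 after DMSO, and the means differed 1.27-fold. In all, groups that did not overlap were found for CD47, PDCD1LG2 and CALR with Olaparib higher and for PVR with Olaparib lower. Of all genes tested, 10.0% lay apart with Olaparib higher and 9.29% with Olaparib lower, and only CD47 of these ligands was called. The median log2 fold change of the 9 ligands was 0.055, and that of all genes tested was -0.0042.

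**Figure D3:**
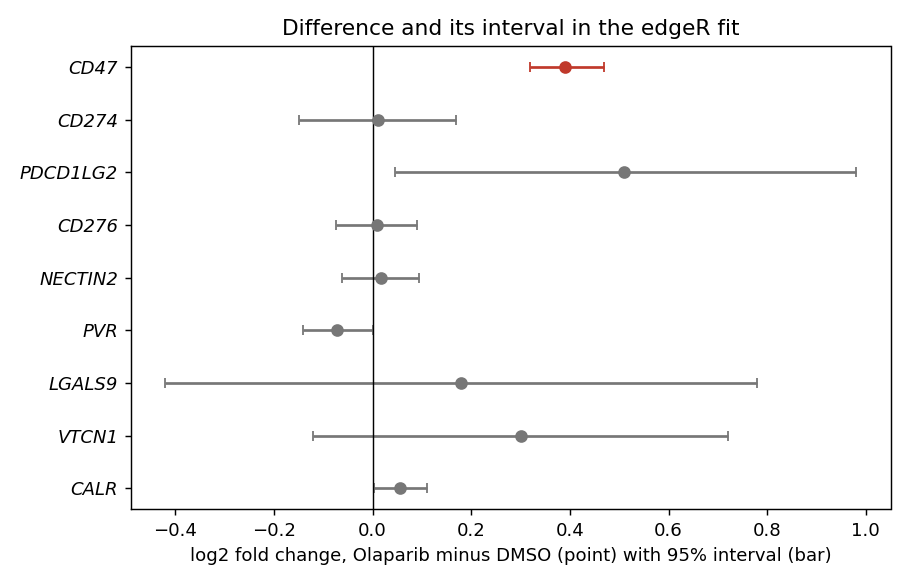
Log2 fold change of each ligand, Olaparib minus DMSO, as a point with its 95% interval from the edgeR fit of 6 samples as a bar, red for the called gene and grey for the others. The CD47 interval runs from 0.32 to 0.47, the intervals of CD276, NECTIN2, PVR and CALR stay between -0.14 and 0.11, and those of LGALS9, VTCN1 and PDCD1LG2 are the widest.

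Receptors and binding partners of the ligands were compared next. This list and the pathway lists below were written with earlier results of these data known, so their calls and p values are a description. Of 15 such genes, 9 passed the filter, 1 was called higher and 0 lower, and the median log2 fold change was -0.10. Over all genes tested, 2.15% were called higher and 1.21% lower. In this list, 4 of the 9 had a mean under 100 normalized counts, and the largest standard error was 0.64. Its median thus rests in part on low counts. The gene called was THBS1, which codes for thrombospondin-1, a secreted protein that binds CD47. It had 24037, 22707 and 22778 normalized counts with Olaparib, compared to 19095, 18063 and 18359 with DMSO. Other genes share 7.58% of its exonic bases. All Olaparib samples stood above all DMSO samples, and THBS1 rose by 0.32 on the log2 scale (SE 0.029, edgeR adjusted p = 2.9e-09). SIRPA, the macrophage receptor of CD47, was itself measurable in these carcinoma cells at 20.3 RPKM in DMSO, with a log2 fold change of 0.095 (edgeR adjusted p = 0.146). LRP1, the receptor of surface calreticulin, had 0.525 RPKM and a log2 fold change of -0.10 (edgeR adjusted p = 0.492). The T-cell receptors PDCD1, CD28, CTLA4 and TIGIT had 1, 3, 1 and 2 counts in total, and PVRIG and CD80 had 0. Another gene shares 80.8% of the exonic bases of PVRIG, so its count is uncertain. The largest absolute values in this list were 0.65 for CD226 and -0.43 for HAVCR2, from 23 and 31 counts in total, and neither was called.

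Among 24 other inhibitory ligands, 20 were tested and 0 were called in edgeR's test, with 2 higher and 5 lower at an unadjusted p under 0.05. Of all genes tested, 7.83% were higher and 6.97% lower at that unadjusted limit. With limma voom and with DESeq2, the same 4 genes of all 6 pathway lists were called as with edgeR, so 0 came from this list. The median log2 fold change of the 20 was 0.020. HMGB1, a nuclear protein that can act as an alarm signal outside the cell, and NT5E (CD73), which makes immunosuppressive adenosine, were abundant at 57.9 and 83.3 RPKM, with log2 fold changes of -0.068 and 0.041. HHLA2, FGL1 and IDO1 had 1, 0 and 8 counts in total. CD24, another "don't eat me" signal, was listed with 0 counts, and its copies CD24P1, CD24P2 and CD24P5 also had 0. Chromosome Y was left out of this search for copies, and how reads shared between copies were counted is not known. The 0 for CD24 is therefore uncertain and does not show that the gene was silent. Of 13 costimulatory ligands, 11 were tested and 0 called, with 4 higher and 1 lower at an unadjusted p under 0.05, beside the same 7.83% and 6.97% of all genes. The median log2 fold change of this list was 0.13, and nothing particular to the list was tested. TNFSF18 (GITR ligand) had 2345 ± 123 normalized counts in the Olaparib samples, against 2145 ± 62.5 in the DMSO samples (edgeR adjusted p = 0.0982). CD86 and CD48 had 2 and 1 counts in total.

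Genes that act on the CD47 and PD-L1 proteins showed 1 call, higher, among 18 tested, with a median log2 fold change of 0.012. The shares called over all genes tested were 2.15% higher and 1.21% lower. QPCTL, the enzyme that forms the pyroglutamate by which SIRPA recognizes CD47, had 957 ± 20.1 normalized counts with Olaparib, compared to 942 ± 10.3 with DMSO (edgeR adjusted p = 0.877). CMTM6, which keeps PD-L1 at the cell surface, had 7166 ± 324 and 7270 ± 80.4 (edgeR adjusted p = 0.837). The gene called was ADAM10, a protease that can shed PD-L1, with 5902 ± 218 against 5414 ± 120 normalized counts, 0.12 on the log2 scale (SE 0.033, edgeR adjusted p = 0.0271). This call was lost without Olaparib replicate 1, DMSO replicate 2 or DMSO replicate 3, at edgeR adjusted p = 0.105, 0.154 and 0.163. Of 13 genes of the calreticulin cycle and its chaperone partners, 0 were called in edgeR's test, with 0 higher and 1 lower at an unadjusted p under 0.05, which 7.83% and 6.97% of all genes met. Their median log2 fold change was 0.0081, and the values lay between -0.055 for HSPA5 and 0.058 for UGGT1, a glycoprotein quality sensor.

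Of 25 regulators of ligand transcription, 2 were called higher and 0 lower, with a median log2 fold change of 0.018. At an unadjusted p under 0.05 in edgeR's test, 6 were higher and 2 lower, which 7.83% and 6.97% of all genes met. RELB, a subunit of the noncanonical NF-kB pathway and one of these, rose from 694 ± 11.7 to 806 ± 31.2 normalized counts, or 0.22 on the log2 scale (SE 0.049, edgeR adjusted p = 0.00735). The RELB call was lost without DMSO replicate 1 or 3, at edgeR adjusted p = 0.058 and 0.053. JAK2, which signals for the interferon gamma receptor and neighbours CD274 at a greater distance on chromosome 9, had a log2 fold change of 0.097 (edgeR adjusted p = 0.739). MYC and HIF1A, both known to act on CD47 and CD274 in other cells, had 0.069 and 0.096 (edgeR adjusted p = 0.258 and 0.131). Over the 6 pathway lists, 4 of 96 genes tested were called higher and 0 lower, beside 2.15% and 1.21% of all genes. Because the lists were written with earlier results known, this comparison supports nothing by itself.

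**Figure D4:**
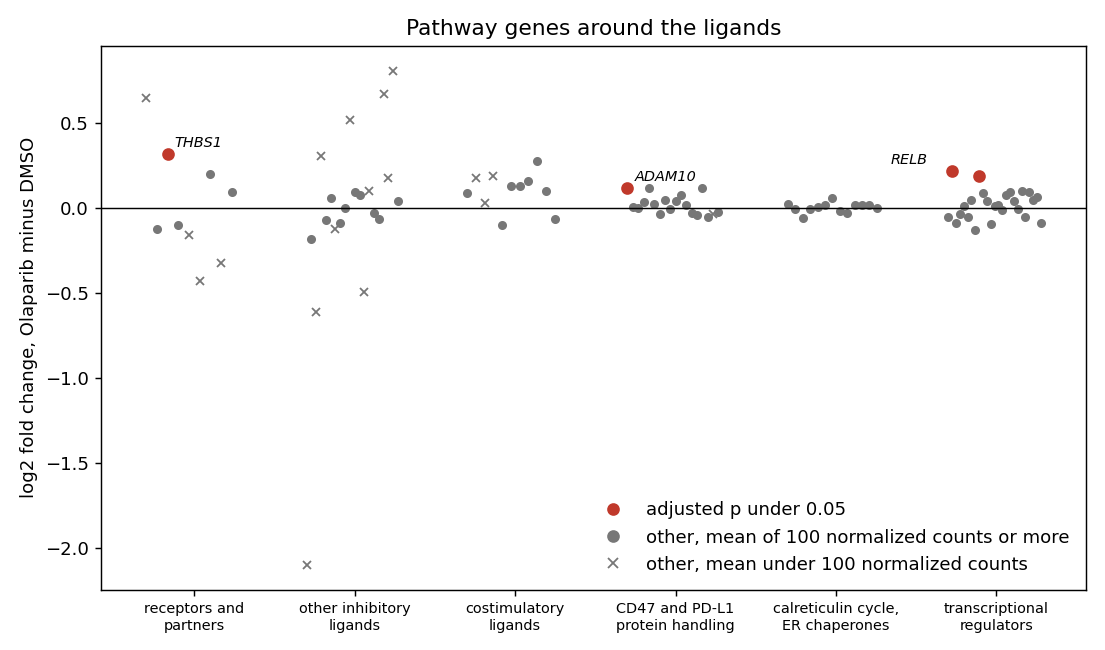
Log2 fold change, Olaparib minus DMSO, of the 96 tested genes in 6 pathway lists, with red for adjusted p under 0.05 in the edgeR test, grey for the others, and crosses for the 18 genes with a mean under 100 normalized counts. THBS1, ADAM10 and RELB are labelled among the calls, and the chaperone list lies close to 0 throughout.

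The genes with the most similar course over the 6 samples were read from Pearson correlations of log2 library-scaled counts with 11184 other protein-coding genes whose mean was at least 100 counts. For CD47 these were CEP192, a centrosome protein (r = 0.9981), PRR11, a cell cycle gene (r = 0.9972), and SPSB1, an adaptor of ubiquitin ligases (r = 0.9927). Their log2 fold changes were 0.26, 0.19 and 0.11, each smaller than that of CD47. For CD274 the most similar genes were DNAJC9, a histone chaperone (r = 0.994), PHF14, a chromatin protein (r = 0.9815), and KIAA2026 (r = 0.9793), whose gene lies 310 kb after PDCD1LG2. These coefficients rest on 6 samples that share their treatment groups and are a description of likeness only.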

How the data were processed

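Poly(A) RNA of UWB1.289 was sequenced from 3 Olaparib samples (4 µM, 24 h) and 3 DMSO samples. The deposited values are raw gene counts, which the authors made with Trimmomatic, STAR on GRCh38, Picard and featureCounts. Neither the strand setting nor whether duplicates were removed was given in the sources used here, so overlapping and near-identical genes were treated as uncertain. Samples were matched by their labels.

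The 9 ligands and the gene lists were chosen with earlier results of these data known. Genes with more than 10 counts in total were fitted across all 21729 genes with edgeR 4.0.16 (TMM, quasi-likelihood test, Benjamini-Hochberg adjustment, no replicate block, R 4.3.3). Standard errors and 95% intervals came from this fit. Each pair of replicates differed by more than sampling noise (chi-square per degree of freedom 1.81 to 4.11 over 15525 genes). Names, positions and exon lengths for RPKM came from GENCODE 44 (GRCh38), which held 96.0% of the genes tested. The deposited table gives no lengths. Promoter windows were matched by symbol in RefSeq for 8 of 9 ligands. Named genes were the ligands, list genes called or at 10 counts or fewer in the receptor and ligand lists, neighbours of CD274 and PDCD1LG2, the copies of LGALS9, PARP1, and the genes most similar to CD47 and CD274. One called gene of the regulator list is not reported here. Other genes were named as known examples of their list after their values were seen. Normalized counts are counts divided by TMM library size, set to the mean library. The fit was tested on simulated data before use. Alternatives were DESeq2 1.42.0, limma 3.58.1 (voom), other size factors, other filters, a replicate block, summed LGALS9 copies, TPM, and leaving out each sample. Nothing in the labels ties same-numbered samples together. The p values set the difference between the groups against the spread among these samples of a single line.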

Additional observations from a re-analysis of the deposited data

How the results depend on the processing

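CD47 was the 1 ligand called higher, and 0 were called lower, in all 13 alternatives: DESeq2, limma voom, other size factors, no filter, edgeR's own filter, the replicate block, summed LGALS9 copies and each sample left out. All of these reuse samples in which the rise of CD47 was already known, so they give no separate support. The LGALS9 copies held 3 and 1 counts in total, so summing them could hardly affect CD47. With a sample left out, the number of ligands called higher stayed at 1 and the log2 fold change of CD47 lay between 0.36 and 0.44. That of CD274 lay between -0.051 and 0.07 and that of CD276 between -0.017 and 0.03, so neither sign is settled, with -0.032, -0.0067 and -0.0078 among the reversed values. DESeq2 gave no adjusted p for PDCD1LG2, LGALS9 and VTCN1. Over the pathway lists, 4 genes were called higher, and 2 to 4 with a sample left out. The lowest count was without DMSO replicate 3, and THBS1 was called each time. With the replicate number as a block, 9 pathway genes were called higher (among them ADAM10, B3GNT3, HIF1A, JAK1, RELB, THBS1, TNFSF18 and ZDHHC3) and 2 lower (CGAS and HMGB1). Deviations of same-numbered samples correlated at -0.212, 0.264 and -0.328. With 3 samples per group, centred on their group means, these values cannot show whether the numbers pair the samples. The order of the ligands per length was the same with TPM and without each DMSO sample, and 6 to 8 neighbouring pairs did not overlap. TPM uses the same exon lengths and cannot reorder genes within a sample, so it does not check this order. With the order unchanged, leaving out a DMSO sample can only keep or raise the number of pairs without overlap. That number is therefore no check either. No other exon lengths were tried, so close steps such as CD276 over PVR rest on the lengths used. The Olaparib to DMSO ratio of CD47 over CALR lay between 1.23 and 1.31, and that of CD274 over PDCD1LG2 between 0.65 and 0.772. Depth limits LGALS9, PDCD1LG2 and VTCN1, at 13 to 40 raw counts per sample.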
